A study of Bos taurus with 20 samples.

Results

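The genes described here are the transcription factors that drive fat cell formation: PPARG, the C/EBP family members CEBPA, CEBPB, CEBPD and CEBPG, the early B-cell factors EBF1, EBF2 and EBF3, and the zinc finger protein ZNF423. They were chosen by symbol, and all 9 were found among the 33063 named genes of the count table. Levels were read in 20 clones of bovine mesenchymal stem cells (MSC), each grown from 1 sorted cell in medium with FBS and bFGF. The 10 adipogenic (A) clones had formed fat cells in a differentiation test, and the 10 non-adipogenic (N) clones had not. RNA came from undifferentiated cells of each clone, so the values describe clones before induction and without any treatment that differed between groups. The clones came from visceral fat of crossbred Holstein Friesian and Aberdeen Angus calves a few months old, with 1 A and 1 N clone from each of animals 17 and 20 and 4 A and 4 N clones from each of animals 22 and 23. Each library stands for a single clone, clones of an animal share that animal, and the A clones had been picked for a high share of stained cells.

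PPARG encodes a nuclear receptor that pairs with a retinoid X receptor and switches on the genes of lipid uptake and storage. In the textbook order of adipogenesis, CEBPB and CEBPD are induced early by hormonal stimuli and raise PPARG and CEBPA, which then sustain each other and the mature fat cell programme. EBF proteins and ZNF423 act at or before this step: EBF1 is known to activate fat cell genes, EBF2 marks committed precursors, and ZNF423 is known for raising PPARG in pre-adipocytes. CEBPG lacks a strong activation domain of its own and works mainly by pairing with other bZIP proteins.

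The libraries held between 14615493 and 43111345 counts on named genes, so that 3 counts, used as the upper limit for a count of 0, were worth 0.0696 to 0.205 CPM (counts scaled to the library total, with edgeR's TMM factors). This limit covers counting error only. All 10 MSC markers examined, among them ITGB1, CD44, NT5E, THY1 and ENG, passed the filter on low counts, and their summed level ranged from 11162 to 24909 CPM in N clones and from 19854 to 31418 CPM in A clones. Most of this sum was COL1A1 and COL3A1, with means of 10412 and 3647 CPM in N clones. Not every N clone held each marker well. The lowest N level was 0.393 CPM for THY1, 0.506 CPM for NT5E and 19.0 CPM for ENG. The lowest A levels were 17.9, 65.1 and 242 CPM. The leukocyte marker PTPRC had at most 7 counts in any clone and LYZ had 0. Other genes of the macrophage and leukocyte list went the other way and are given further below. CD68, CD14 and MRC1 reached 137, 135 and 193 counts in A clones and 106, 107 and 48 counts in N clones. A pair of N clones, 22-5 and 22-9, stood apart in mesothelial markers (MSLN, UPK3B, UPK1B, KRT8, KRT18, KRT19, WT1, LRRN4, BNC1 and CALB2), with sums of 10344 and 7260 CPM, where the remaining N clones held 9.29 to 639 CPM and the A clones 8.96 to 1214 CPM. MSLN was the 1 of the 8 tested genes of the mesothelial list that passed the test, lower in A clones, as were 10.3% of all genes tested. CALB2 was at or near 0 in every clone. The edgeR fit was repeated without this pair, and member calls that changed are given with and without it. Permutation tests, shares, spreads and correlations were not repeated without the pair.

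A and N clones were compared with edgeR's quasi-likelihood test with the animal as a block, and a gene was called where its Benjamini-Hochberg adjusted p over all 12900 genes tested was under 0.05. PPARG rose in A clones, while CEBPB, CEBPD and CEBPG fell. EBF1, EBF2, EBF3 and ZNF423 did not pass this threshold, and CEBPA had counts too low for the filter and was not in this fit. So 4 of the 8 members tested were called, 1 higher and 3 lower, against 20.6% of all genes tested, 10.3% in each direction. Only PPARG among the 8 tested was called and also changed at least 2-fold, as did 3.95% of all genes tested in the same direction. The median log2 fold change of the 8 was 0.92, and that of all genes tested was -0.01. No member separated all A clones from all N clones, which 0.233% of genes did with A higher and 0.093% with A lower.

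**Figure D1:**
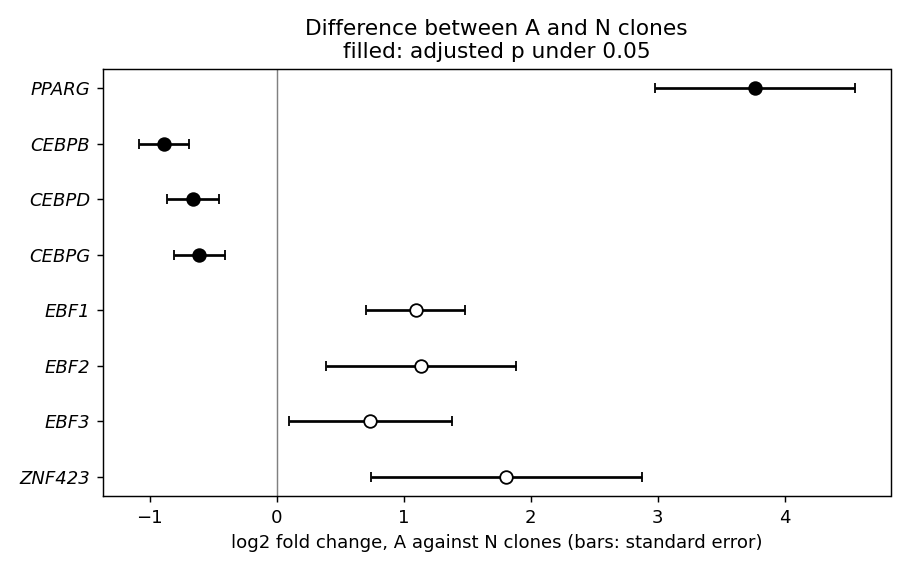
Log2 fold change of A against N clones on the x axis for the 8 transcription factor genes tested, with bars of 1 standard error from edgeR's quasi-likelihood fit (n = 10 clones per group). PPARG lies at 3.77 and the 3 C/EBP genes between -0.89 and -0.61, all filled as called, while EBF1, EBF2, EBF3 and ZNF423 lie above 0 with open points.

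PPARG, the master regulator of the programme, was low but present in every A clone, from 4.32 CPM over a median of 8.83 to 19.8 CPM. In N clones it ranged from 0 CPM, in 2 clones, over a median of 0.354 to 6.28 CPM. The groups overlapped through a single library: N clone 22-18, at 6.28 CPM or 247 counts, exceeded 3 A clones, while the other 9 N clones, at 1.2 CPM or less, lay below every A clone. The means were 10.3 ± 5.65 CPM in A clones and 0.933 ± 1.91 CPM in N clones (SD, n = 10 each), which gave a log2 fold change of 3.77 (standard error, SE, of 0.785, adjusted p = 0.00486). The difference in mean log2 CPM was positive in 4 of 4 animals, at 3.94, 4.78, 4.12 and 4.68 for animals 17, 20, 22 and 23. Without N clone 22-18 the log2 fold change was 5.06 (adjusted p = 6.99e-05), the largest value when any of the 20 clones was left out, and the smallest was 3.58. Animal 22, which holds that clone, gave 2.51 on its own (adjusted p = 0.357), and the 12 clones left without animal 23 gave 3.12 (adjusted p = 0.167). In bulk RNA, fewer cells with PPARG transcripts and less transcript per cell cannot be told apart.

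The level of N clone 22-18 can be set beside genes that PPARG is known to activate. Of 14 fat cell target genes tested, the clone was the highest N clone for 1, the lipid droplet coat protein gene PLIN2 (85.7 CPM, above 5 A clones), and among the highest 3 N clones for 2. It lay within the range of A clones for 9 of the 14, FABP4, CD36 and AGPAT2 among them, below every A clone for 5, such as PLIN1, LPL, CIDEA and LIPE, and above every A clone for 0. CIDEA, a lipid droplet protein gene, was at 1.30 CPM there, with the lowest A clone at 2.69 CPM. Of the 14 inhibitors of the cascade tested, the clone lay within the A range for 9, above every A clone for 3 (KLF3, TCF7L2 and NR2F2) and below every A clone for 2 (GATA2 and SOX9). ZNF423 was at 11.7 CPM in the clone, above all 10 A clones.

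**Figure D2:**
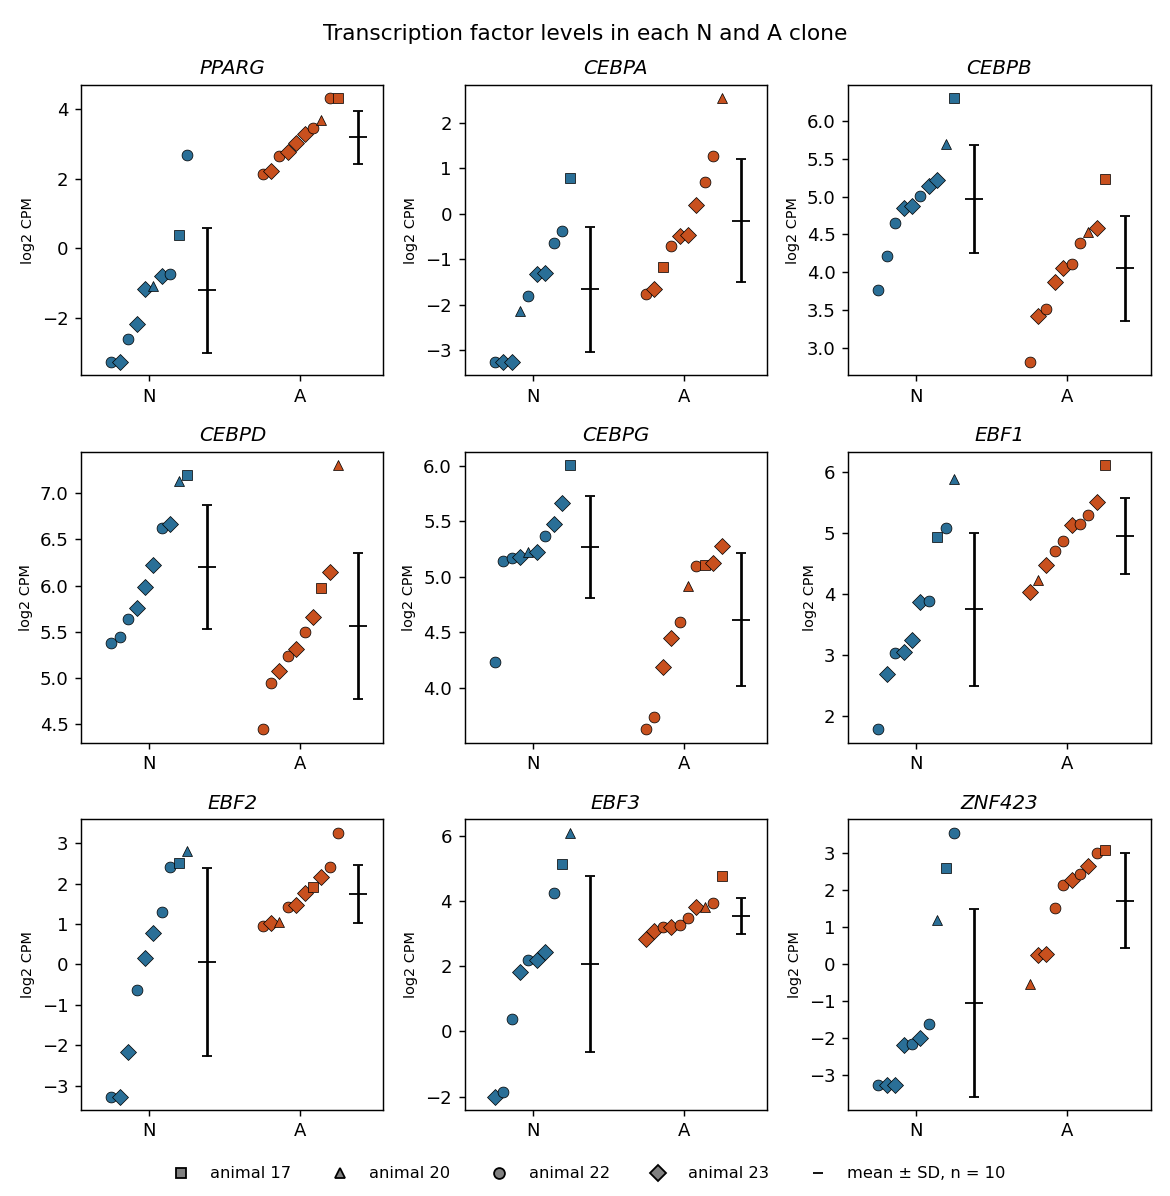
Log2 CPM of each transcription factor gene in the 10 N (blue) and 10 A (orange) clones, sorted within groups, with marker shape for the animal and the mean ± SD beside each group (n = 10). PPARG sets apart all but 1 N clone, CEBPB, CEBPD and CEBPG lie lower in A clones with overlap, and EBF2, EBF3 and ZNF423 spread widely in N clones.

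The early C/EBP genes and their partner CEBPG were lower in the clones that could form fat cells. CEBPB, induced at the start of adipogenesis and also by stress and cytokines, ranged from 13.4 over a median of 30.7 to 78.9 CPM in N clones and from 6.91 over 16.8 to 37.5 CPM in A clones. The ranges overlapped, with 3 A clones below every N clone and 2 N clones above every A clone. The log2 fold change was -0.89 (SE 0.198, adjusted p = 0.00668), the difference was negative in 4 of 4 animals, and the call held when any clone was left out. In animal 22 alone it was -0.68 (adjusted p = 0.366), and without animal 23 it was -0.82 (adjusted p = 0.158).

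CEBPD, the other early C/EBP gene, ranged from 41.6 over a median of 68.8 to 147 CPM in N clones and from 21.6 over 42.4 to 158 CPM in A clones. The highest level of all was in A clone 20-106, while 5 A clones were lower than all N clones. The log2 fold change was -0.66 (SE 0.204, adjusted p = 0.0313), and the difference was negative in 3 of 4 animals, with 0.17 in animal 20. The call was lost, at adjusted p from 0.0548 to 0.0630, without N clone 17-23, 22-9 or 23-22 or A clone 17-57 or 22-27. Without both N clones 22-5 and 22-9 the log2 fold change was -0.50 (adjusted p = 0.0922), without the animal block it was -0.56 (adjusted p = 0.236), and limma-voom gave -0.65 (adjusted p = 0.0978), so the call was lost in each.

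CEBPG, the dimer partner, ranged from 18.7 over a median of 37.4 to 64.2 CPM in N clones and from 12.2 over 27.1 to 38.8 CPM in A clones. The groups overlapped, with 3 A clones below every N clone and 4 N clones above every A clone. The log2 fold change was -0.61 (SE 0.199, adjusted p = 0.0390), negative in 4 of 4 animals. This call was the least firm of the 4, since it was lost in 12 of the 20 fits without a single clone, at adjusted p from 0.0513 to 0.0700. The clones concerned were N 17-23, 22-9, 22-17, 22-18, 23-10 and 23-23 and A 17-57, 22-11, 22-16, 22-27, 23-14 and 23-62. Without the animal block the log2 fold change was -0.62 (adjusted p = 0.0591).

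CEBPA, the partner of PPARG late in adipogenesis, was near the limit of detection. It ranged from 0 CPM, in 3 clones, over a median of 0.237 to 1.63 CPM in N clones and from 0.188 over 0.617 to 5.73 CPM in A clones. Only 2 A clones, 20-106 and 22-27, lay above every N clone, and the highest N clone, 17-23, lay above the A clone of the same animal, which was at 0.340 CPM. The mean log2 CPM was 1.51 higher in A than in N clones (two-sided exact permutation test within animals over 19600 arrangements, p = 0.0354), higher in 3 of 4 animals. The p rose above 0.05 without N clone 22-5 (0.0615), 23-22 (0.0763) or 23-74 (0.0763) or A clone 22-27 (0.0642) or 22-121 (0.0582). Fitted by edgeR without the filter, over all genes with a count, the log2 fold change was 1.77 (SE 0.758, adjusted p = 0.137).

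The makeup of the C/EBP counts was then compared, since a share within a library does not depend on how libraries are scaled. CEBPD took 50.9 ± 8.35% of the counts summed over the 4 C/EBP genes in N clones and 52.4 ± 14.4% in A clones. CEBPG took 27.3 ± 7.67% in N and 27.8 ± 9.49% in A clones, and CEBPB 21.6 ± 3.28% in N and 18.6 ± 6.13% in A clones (SD, n = 10 each). The adjusted p of these 3 shares ran from 0.594 to 0.932 (two-sided exact permutation test within animals, adjusted over 7 shares). CEBPA took 0.228 ± 0.251% in N and 1.2 ± 1.11% in A clones (p = 0.00582, adjusted p = 0.0407 in the same exact test), and 6 A clones had a larger share than any N clone. Of the 20 repeats without 1 clone, 10 raised that adjusted p above 0.05, up to 0.126. They were those without N 17-23, 22-5, 22-9, 22-17, 23-10, 23-22, 23-23 or 23-74, or without A 22-27 or 22-121. The CEBPA share also depends on the other C/EBP genes, which were lower in A clones. The summed C/EBP level had a median of 94.4 CPM in A and 149 CPM in N clones. CEBPA itself had 3 to 117 counts in A and 0 to 30 counts in N clones.

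Genes of cell division were examined beside the C/EBP genes. Of 10 proliferation markers, all tested, 5 were called lower in A clones (MKI67, TOP2A, CDK1, BUB1 and MCM5) and none higher, against 10.3% of all genes tested called lower, with a median log2 fold change of -1.16. Their summed level ranged from 139 to 697 CPM in N clones and from 31.4 to 425 CPM in A clones. A clone 20-106, highest of all clones for CEBPD and CEBPA, had the lowest sum. The part of proliferation in the C/EBP differences was not tested.

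The EBF genes and ZNF423 had higher medians in A clones, but none passed the test. EBF1, the activator of fat cell genes, ranged from 3.31 over a median of 11.9 to 59.0 CPM in N clones and from 16.2 over 31.8 to 68.8 CPM in A clones. A group of 7 N clones lay below every A clone, and the remaining 3, 17-23, 20-15 and 22-18, lay within the A range. The log2 fold change was 1.10 (SE 0.390, adjusted p = 0.0547). It was called without N clone 20-15 (1.34, adjusted p = 0.0150), N clone 22-18 (1.40, adjusted p = 0.0145) or A clone 20-106 (1.34, adjusted p = 0.0151), by DESeq2 (1.11, adjusted p = 0.0128) and by limma-voom (1.13, adjusted p = 0.0457). Without N clones 22-5 and 22-9 it was 0.85 (adjusted p = 0.115).

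EBF3, the third family member, split N clones most widely of the 9 genes. It ranged from 0.146 over a median of 4.49 to 68.8 CPM in N clones and from 7.06 over 10.3 to 27.3 CPM in A clones, so that 7 N clones lay below every A clone and 2 N clones, 17-23 and 20-15, lay above every A clone. The mean was 14.2 ± 22.1 CPM in N and 12.5 ± 5.89 CPM in A clones (SD, 10 clones each). The log2 fold change was 0.74 (SE 0.641, adjusted p = 0.423), and without the animal block it was -0.19 (adjusted p = 0.882).

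EBF2, a marker of brown and beige fat precursors, ranged from 0 CPM, in 2 clones, over a median of 1.31 to 6.86 CPM in N clones and from 1.84 over 2.99 to 9.49 CPM in A clones, with a log2 fold change of 1.14 (SE 0.749, adjusted p = 0.283). ZNF423 ranged from 0 CPM, in 3 clones, over 0.133 to 11.7 CPM in N clones and from 0.587 over 4.52 to 8.43 CPM in A clones, with a log2 fold change of 1.81 (SE 1.07, adjusted p = 0.231). Without N clone 22-18, its highest N clone, the value for ZNF423 was 4.10 (adjusted p = 0.00720), and limma-voom gave 2.99 (adjusted p = 0.0434). A low group of 7 N clones, at 0 to 0.224 CPM, lay below every A clone in ZNF423, and the other 3 were again 17-23, 20-15 and 22-18.

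The same 3 N clones, 1 each from animals 17, 20 and 22, thus held the upper end of EBF1, EBF3 and ZNF423. Clone 17-23 had 30.5 CPM of EBF1, 35.3 CPM of EBF3 and 5.92 CPM of ZNF423. Clone 20-15 had 59.0 CPM of EBF1, 68.8 CPM of EBF3 and 2.20 CPM of ZNF423. Clone 22-18 had 33.8 CPM of EBF1, 19.0 CPM of EBF3 and 11.7 CPM of ZNF423. Only 22-18 of the 3 held PPARG in the A range, and the other two were at 1.2 and 0.367 CPM.

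Clones 17-23 and 20-15 were the only N clones of their animals, and the sign of the EBF differences varied between animals. For EBF1, the difference in mean log2 CPM between A and N clones was 1.17, -1.67, 1.56 and 1.57 in animals 17, 20, 22 and 23. For EBF2 it was -0.58, -1.76, 2.06 and 2.73, and for EBF3 it was -0.37, -2.29, 2.23 and 2.12. ZNF423 differed by 0.50, -1.74, 3.14 and 4.04. All 4 genes were higher in A clones in animals 22 and 23 and lower in the A clone of animal 20, where each group is 1 clone and no spread can be given.

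**Figure D3:**
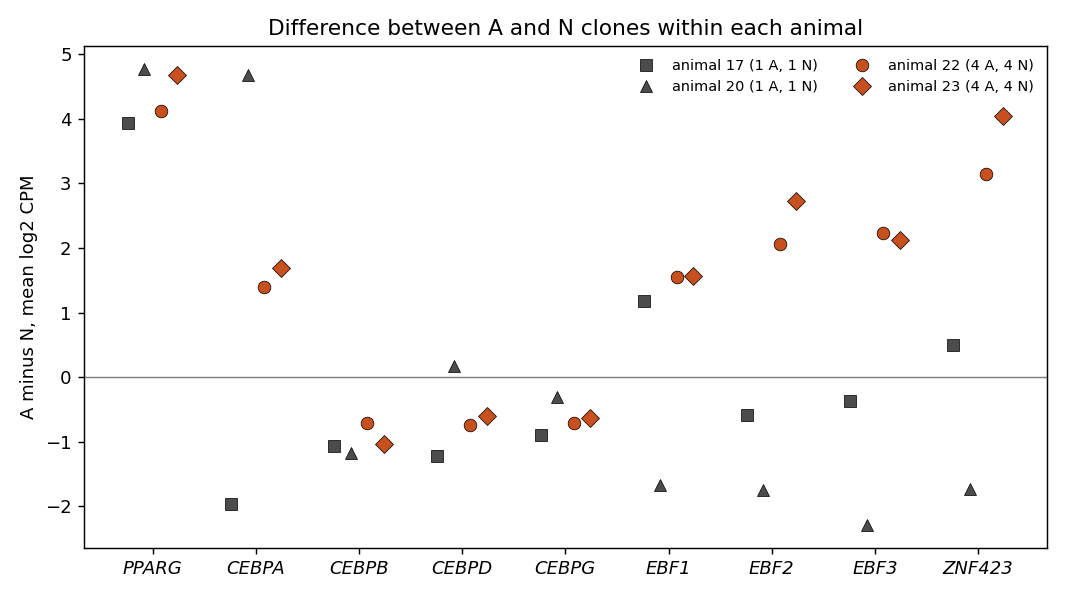
Difference in mean log2 CPM between the A and N clones of each animal (y axis) for the 9 genes, with grey points for animals 17 and 20 (1 A and 1 N clone each) and orange points for animals 22 and 23 (4 and 4). PPARG lies above 0 in all 4 animals, CEBPB and CEBPG lie below 0 in all 4, and EBF1, EBF2, EBF3 and ZNF423 lie above 0 in animals 22 and 23 and below 0 in animal 20.

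Animals 22 and 23, with 4 clones per group, allowed a test of whether the effect differed between animals. No member passed it, as against 0.031% of 12915 genes tested. The largest difference of effect, animal 23 minus animal 22, was that of ZNF423, at 4.71 on the log2 scale (SE 2.07, p = 0.0393 and adjusted p = 0.532 from edgeR's interaction term), and it was 0.098 (adjusted p = 0.985) without N clone 22-18. For PPARG it was 2.37 (SE 1.63, adjusted p = 0.692), and it turned to -0.75 without N clone 22-18. For CEBPB, CEBPD, CEBPG, EBF1, EBF2 and EBF3 the sizes lay between 0.081 and 0.969 or, for CEBPB, at -0.32, with adjusted p of at least 0.875.

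The spread between the clones of a group was compared by the SD of log2 CPM. This SD was 2.70 in N and 0.56 in A clones for EBF3, 2.33 and 0.73 for EBF2, 2.54 and 1.28 for ZNF423, 1.80 and 0.77 for PPARG, and 1.25 and 0.62 for EBF1. Among all genes tested, 0.109% had a larger excess of N over A spread than EBF3, and 0.620% a larger excess than EBF2. CEBPA, at 1.37 in N and 1.36 in A clones, and CEBPB, at 0.71 and 0.69, varied about equally. In CEBPD and CEBPG the order was the other way, with 0.67 in N and 0.79 in A clones for CEBPD and 0.46 in N and 0.60 in A clones for CEBPG. In total 7 of the 9 members varied more in N clones, as did 61.9% of all genes tested, and the median SD over all genes was 0.38 in N and 0.34 in A clones. These spreads are a description with no test, and for EBF2, EBF3, ZNF423 and PPARG they rest in part on N clones with 0 to 3 counts.

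The share of each EBF gene in the summed EBF counts showed the same contrast in spread. EBF1 took 67.2 ± 19.7% in N and 66.6 ± 7.70% in A clones, EBF3 26.8 ± 17.7% in N and 25.7 ± 6.60% in A clones, and EBF2 6.0 ± 4.93% in N and 7.72 ± 3.68% in A clones (SD, n = 10 each). The adjusted p was 0.932 for EBF1, 0.932 for EBF3 and 0.925 for EBF2 (two-sided exact permutation test within animals). The EBF3 share ran from 1.75% to 51.1% over N clones and from 14.8% to 40.6% over A clones, so the N range held the A range.

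Correlations between members were computed within each group on log2 CPM, over 28 pairs of 8 genes in A clones and 10 pairs of 5 genes in N clones with at least 10 counts in at least 8 clones of the group. Past an adjusted p of 0.05 over all 38 pairs, Pearson's r gave 2 pairs in each group, while Spearman's rho gave none in A clones and 1 in N clones. At an unadjusted p under 0.05, 5 pairs passed in each group by r, and 4 in A and 2 in N clones by rho.

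In A clones, CEBPB and CEBPG correlated at r = 0.818 (permutation p = 0.00313, adjusted p = 0.0396, n = 10) and rho = 0.782 (permutation p = 0.0109), and r was 0.794 without the 2 clones farthest from the median of CEBPB. EBF1 and ZNF423 correlated in A clones at r = 0.796 (permutation p = 0.00503, adjusted p = 0.0478, n = 10) and rho = 0.745 (permutation p = 0.0177), with r = 0.748 without 2 clones. In N clones, CEBPB and CEBPD correlated at r = 0.853 (permutation p = 0.000660, adjusted p = 0.0251, n = 10) and rho = 0.915 (permutation p = 0.000440, adjusted p = 0.0167), with r = 0.874 without 2 clones. EBF1 and EBF3 correlated in N clones at r = 0.840 (permutation p = 0.00278, adjusted p = 0.0396, n = 10) and rho = 0.697 (permutation p = 0.0305), with r = 0.663 without 2 clones.

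PPARG had no pair past the adjusted threshold. In A clones its r was 0.742 with EBF3, 0.734 with CEBPB and 0.732 with CEBPG, each at an adjusted permutation p of 0.0891 (n = 10). Thus the A clones with more PPARG tended to hold more CEBPB, in the opposite direction to the difference between groups, though the relation did not pass the correction. Without the 2 clones farthest from the median of PPARG, 17-57 and 22-121, these r were 0.440, 0.593 and 0.693. With levels centred within animals 22 and 23 (n = 8 per group), none of the 38 pairs passed, and the pairs that had passed kept an r of 0.834, 0.708, 0.591 and 0.687 in the order given above.

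The genes most like PPARG were ranked by the mean of Spearman's rho with PPARG within the 10 A and within the 10 N clones, as a description. They included POLR3GL (0.862), an RNA polymerase III subunit gene, PHKA1 (0.838), a phosphorylase kinase subunit gene, COMMD10 (0.834) and ATG5 (0.832), an autophagy gene. None of these 4 differed between A and N clones past the threshold, with log2 fold changes of 0.21, -0.27, -0.10 and -0.04 (adjusted p from 0.0528 to 0.774). With Pearson's r in place of rho, 2 of the 5 highest genes stayed among the top 5. Of the other members, EBF3 ranked 265 among the genes tested (0.631), CEBPG 289 (0.622), ZNF423 517 (0.564), EBF2 537 (0.561), CEBPB 1363 (0.427), EBF1 1633 (0.395) and CEBPD 8503 (-0.137). For ZNF423 and EBF1 the likeness came from N clones, with rho of 0.855 and 0.772 there against 0.273 and 0.018 in A clones, while for CEBPB it came from A clones, with rho of 0.782 against 0.073 in N clones. In N clones PPARG had a median of 6.5 counts and ZNF423 of 2.5, and neither met the count rule of the correlations above. The rho values in N clones, and so all these ranks, rest in part on counts near 0.

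Around these factors, 85 further genes in 6 lists of partners, targets, activators and inhibitors were examined, and 70 were tested. Of these, 6 were called higher and 13 lower in A clones, against 10.3% of all genes in each direction. Known target genes of PPARG in fat cells held 4 of the 6 higher calls and no lower one, among 14 tested of 20, with a median log2 fold change of 0.80. CIDEA rose by 1.79 (SE 0.361, adjusted p = 0.00378), from 1.63 ± 0.998 CPM in N to 5.83 ± 2.38 CPM in A clones (SD over 10 clones each), and 7 A clones exceeded all N clones. AGPAT2, which makes phosphatidic acid for triglyceride synthesis, rose by 1.5 (adjusted p = 0.0202), and the droplet coat proteins PLIN2 and PLIN1 rose by 0.73 (adjusted p = 0.0413) and 0.53 (adjusted p = 0.0456).

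Of the other target genes, LPL, which encodes lipoprotein lipase, was at 28.4 ± 27.4 CPM in A and 13.7 ± 27.5 CPM in N clones (log2 fold change 1.93, adjusted p = 0.115), and CD36, a fatty acid transporter, gave 1.78 (adjusted p = 0.0539). FABP4, the fatty acid binding protein of fat cells, gave 0.94 (adjusted p = 0.357), and CIDEC gave -0.64 (adjusted p = 0.129). The 6 not tested were PLIN4, ADIPOQ, PCK1, PDK4, AQP7 and LEP. ADIPOQ, which encodes the fat cell hormone adiponectin, reached 42 counts in an A clone and at most 3 in N clones, with 6 A clones above every N clone. PDK4 reached 7 counts, with 9 A clones above every N clone, LEP reached 4 and AQP7 1, and PCK1 had 0 counts in every clone. In edgeR without the filter, the log2 fold change was 2.75 for ADIPOQ (adjusted p = 0.0175) and 3.01 for PDK4 (adjusted p = 0.0102). LEP (2.39, adjusted p = 0.0734), AQP7 (1.40, adjusted p = 0.264) and PLIN4 (0.01, adjusted p = 0.999) did not pass in that fit. Among 8 markers of mature fat cells, 5 were tested and PLIN1 was called higher, against 10.3% of all genes tested. Sums over the 8 were 17.7 to 40.1 CPM in A and 14.9 to 42.6 CPM in N clones. Of the 3 not tested, DGAT2 gave 2.75 in edgeR without the filter (adjusted p = 0.0235), and ADIPOQ and LEP are given above.

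Among 16 known inhibitors of the cascade, 5 of 14 tested were called lower and none higher, against 10.3% of all genes tested in each direction. Their median log2 fold change was -0.27. KLF2, a Krüppel-like factor that represses PPARG, fell by 1.15 on the log2 scale (adjusted p = 0.00172), with 8 A clones below every N clone. NR2F2, the orphan receptor COUP-TFII, fell by 1.22 (adjusted p = 0.00334), and TCF7L2, which carries Wnt signals, fell by 0.67 (adjusted p = 0.00387). KLF3 and SIRT1 fell by 0.61 and 0.47. The 9 others tested did not pass, and GATA2, WNT10B, WNT5A, FOXO1, FOXC2 and MSX2 among them had positive values, such as 1.41 for WNT10B (adjusted p = 0.0618) and 2.28 for FOXC2 (adjusted p = 0.0898). DLK1, the pre-adipocyte factor that inhibits differentiation, had 0 counts in every clone, and GATA3 was not tested.

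Genes listed here as upstream activators went in both directions, with 2 higher and 2 lower among 11 tested of 14. Their median was 0.07, and 10.3% of all genes tested were called in each direction. RORA, an orphan nuclear receptor, rose by 1.23 (adjusted p = 0.00293) and NR1H3, the oxysterol receptor LXR alpha, by 0.42 (adjusted p = 0.0366). Whether RORA acts as an activator or as an inhibitor in these cells was not tested, so its call is not read as a rise of an activator. SREBF1, the regulator of lipid synthesis genes, fell by 0.92 (adjusted p = 0.00519) and KLF4 by 0.82 (adjusted p = 0.0171). KLF15, ZNF467 and GLIS1 were not tested.

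Of 18 partners and coregulators of PPARG, 16 were tested, with a median of -0.16. Against 10.3% of all genes tested in each direction, 3 were called lower and none higher. They were NCOA3 and CREBBP, which help nuclear receptors activate genes, at -0.64 (adjusted p = 0.0286) and -0.40 (adjusted p = 0.0278), and PPARA, the related receptor of fatty acid oxidation, at -0.55 (adjusted p = 0.0301). The obligate partners RXRA and RXRB were at 28.9 and 33.9 CPM in A and 34.5 and 38.1 CPM in N clones (adjusted p = 0.247 and 0.118), RXRG had 0 counts in every clone, and PRDM16 was not tested. Among partners of EBF and ZNF423, 2 of 10 were called lower, against 10.3% of all genes tested. These were TLE3, a corepressor, at -0.76 (adjusted p = 0.00838) and SMAD4, the shared mediator of BMP signals, at -0.36 (adjusted p = 0.00507). ZNF521, a close relative and opponent of ZNF423, was at -0.85 (adjusted p = 0.210). Of 7 other C/EBP and bZIP genes, 5 were tested and the stress gene ATF3 was called lower, at -1.10 (adjusted p = 0.0262), against 10.3% of all genes tested. CEBPE and BATF had 0 counts throughout.

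The number of these pathway genes called higher was 3 instead of 6 without N clone 22-17 or 23-10 or A clone 20-106 or 22-27, and the number called lower stayed between 11 and 14 over all 20 such fits. DESeq2 called 12 higher. The share of all genes called in these fits is not given here, so their counts do not single out the pathway genes. Among 8 markers of smooth muscle and pericytes, 3 of 7 tested were called higher in A clones (NOTCH3, CSPG4 and MYH11), against 10.3% of all genes tested, and 4 were not called, with sums of 970 to 9052 CPM in A and 129 to 6211 CPM in N clones, while RGS5 stayed at 52 counts or fewer. Among macrophage and leukocyte genes, 2 of 2 tested of 8 were higher (CD68 and MRC1), against 10.3% of all genes tested. Sums over the 8 were 3.60 to 23.0 CPM in A and 1.62 to 13.7 CPM in N clones, with LYZ at 0. Of the genes of this list left out by the filter, CSF1R was at 1.01 CPM in A and 0.0974 CPM in N clones (log2 fold change 3.13, adjusted p = 0.00268 in edgeR without the filter). All 10 A clones lay above all N clones in CSF1R, as in 0.233% of the genes tested with the filter. CD14 was at 1.46 and 0.846 CPM (2.75, adjusted p = 0.0417). CD163 (1.99, adjusted p = 0.170), AIF1 (1.28, adjusted p = 0.208) and PTPRC (1.67, adjusted p = 0.381) did not pass in the fit without the filter. Of the endothelial list, 1 of 5 tested was higher (ERG), against 10.3% of all genes tested. Sums over this list were 9.64 to 105 CPM in A and 1.35 to 54.5 CPM in N clones, with CLDN5 at 0. COL3A1 was the 1 of 10 MSC markers called, and it was higher, as were 10.3% of all genes tested. The part of these cell types in the results was not tested.

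**Figure D4:**
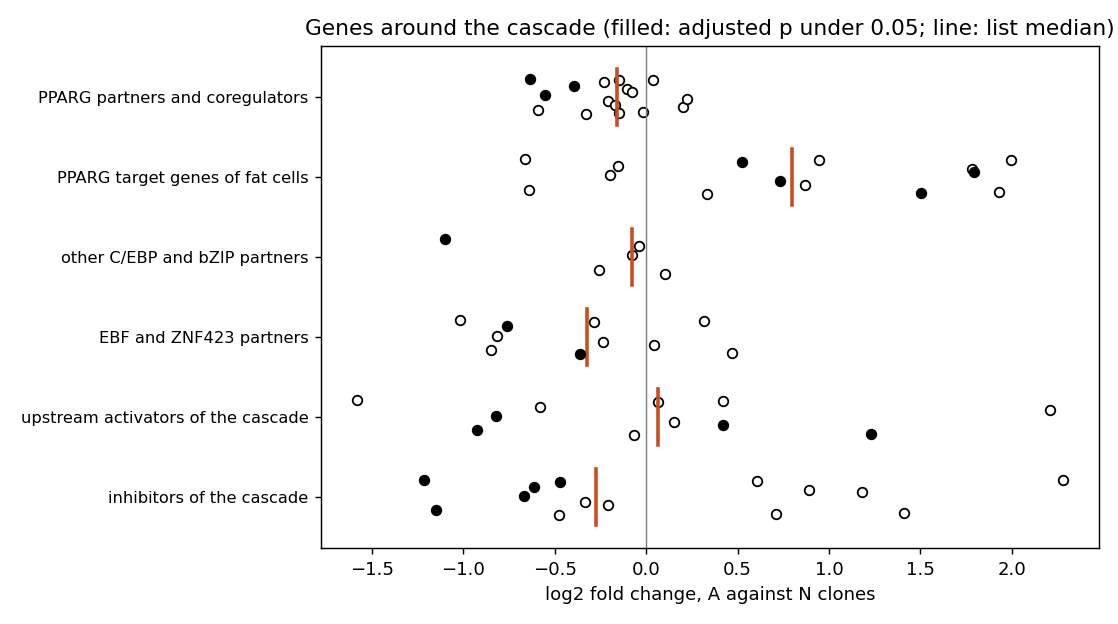
Log2 fold change of A against N clones (x axis) for the tested genes of 6 lists around the cascade (y axis), with filled points for genes at an adjusted p under 0.05 in edgeR's quasi-likelihood test and a line at each list's median. Filled points lie above 0 for target genes of fat cells, below 0 for inhibitors and on both sides for genes listed as upstream activators.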

How the data were processed

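RNA sequencing of 20 bovine MSC clones was analysed from the raw counts per gene that the authors deposited. Per the labels and the methods of the study, the authors prepared directional libraries, trimmed reads with Trimmomatic 0.36, mapped them to ARS-UCD1.2 with STAR 2.5.2b and counted unique reads within exons with Subread 1.5.2. The strand setting and the assignment of reads on overlapping genes are not given in the sources used here. A row without a name, with 0.113% to 0.333% of the counts, was left out, and 0 columns came from other series. Groups and animals were taken from the sample labels.

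Counts were fitted with edgeR 4.0.16 in R 4.3.3 (TMM factors, filterByExpr by condition, robust quasi-likelihood F test with animal as a block, Benjamini-Hochberg adjustment). Levels are CPM with TMM factors. A prior count of 2 was added for log2 CPM. The pairing comes from the animals, and within animals 17, 20, 22 and 23 the deviations of A and N clones from the mean of their group had correlations of 0.253, 0.192, 0.241 and 0.440. Permutation tests and correlations (at least 10 counts in at least 8 clones, 100000 resamples) used scipy 1.17.1. The p-values measure the spread between clones of 4 animals.

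The members and lists were chosen with earlier results of these data known. Genes named were the members, up to 3 called genes per direction of each list by smallest adjusted p, list genes left out by the filter, and the 5 genes most like PPARG, of which 1 is not reported here. Any other gene was named after its values were seen. Alternatives were DESeq2 1.42.0, limma-voom (limma 3.58.1), other normalizations and filters, no block, single animals and each animal or clone left out. Leaving out N clones 22-5 and 22-9 was added after the data were seen. Scripts were tested on simulated data. No sequence is shown, and gene lengths and coordinates were not used here.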

Additional observations from a re-analysis of the deposited data

Results flagged for a closer look

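Dixon's gap test was run for the highest and lowest clone of each member in each group, 18 groups in all, of which chance would flag about 0.9. It singled out CEBPG in N clone 22-5, at 18.7 CPM against 35.3 CPM or more in the other N clones. The gap was taken on log2 CPM, not on CPM. On that scale it was 0.515 of the range, above Dixon's 95% critical value for 10 samples. The clone is 1 of the 2 N clones with high mesothelial markers, and without both of them the log2 fold change of CEBPG was -0.68 (edgeR, adjusted p = 0.0385).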

How the results depend on the processing

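Of 718 values recomputed under other settings, 588 kept their direction and their side of the threshold or, for counts, stayed within 1.5 times. Another 51 fell short of the threshold, 11 passed it newly, 34 changed sign and 34 counts moved further. DESeq2 size factors, upper-quartile normalization and the fit without a filter changed no member's call except for CEBPA, tested by edgeR without the filter (1.77). The cause of the changes below was not tested, except that single animals and omitted animals or clones leave fewer clones. The share of all genes called in each of these fits is not given here. The counts of members and pathway genes below therefore cannot be told apart from a change over all genes.

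Without the replicate block, the log2 fold change was -0.56 for CEBPD, -0.62 for CEBPG and -0.19 for EBF3, and 2 members were called in place of 4. The block changed no other member's call. With limma-voom, CEBPD was at -0.65 and no longer called, and EBF1 at 1.13 and ZNF423 at 2.99 were called. EBF1 was at 1.11 with DESeq2 and at 1.11 with at least 10 counts in every clone. DESeq2 called 12 pathway genes higher in place of 6. CEBPD was at -0.50 without N clones 22-5 and 22-9, with 3 members called. In animal 22 alone, PPARG was at 2.51, CEBPB at -0.68, CEBPD at -0.79 and CEBPG at -0.66, with 0 members and 0 higher and 1 lower pathway gene called. In animal 23 alone, CEBPD was at -0.59, CEBPG at -0.57, EBF1 at 1.63 and ZNF423 at 5.42, with 3 higher and 2 lower pathway genes. Without animal 17, CEBPD was at -0.60 and CEBPG at -0.58, with 2 members called. Without animal 20, EBF1 was at 1.34. Without animal 22, CEBPD was at -0.57 and CEBPG at -0.58, with 2 members and 3 higher pathway genes called. Without animal 23, PPARG was at 3.12, CEBPB at -0.82, CEBPD at -0.71 and CEBPG at -0.64, with 0 members, 0 higher and 1 lower pathway gene called. Centred within animals, 0 pairs of members passed in A and 0 in N clones. With Pearson's r, 2 of the 5 genes most like PPARG were the same. The EBF3 share turned to 0.25 on the logit scale.

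When each clone was left out in turn, the difference for CEBPA ran from 1.21 to 1.78, and the log2 fold change from -0.75 to -0.51 for CEBPD, -0.73 to -0.54 for CEBPG, 0.96 to 1.40 for EBF1 and 1.5 to 4.10 for ZNF423. The members called numbered 2 to 5, the pathway genes called higher 3 to 7 and the family shares that differed 0 to 1. The difference of effect between animals 23 and 22 ran from -0.75 to 2.91 for PPARG, -0.17 to 0.39 for CEBPD, -0.11 to 0.42 for CEBPG, -0.27 to 0.86 for EBF1, -0.10 to 1.86 for EBF2 -1.0 to 1.11 for EBF3 and 0.098 to 5.42 for ZNF423, and none passed. The difference in share, in percentage points, ran from 0.709 to 1.08 for CEBPA, -0.763 to 3.64 for CEBPD, -0.751 to 2.06 for CEBPG, -3.25 to 2.92 for EBF1 and -3.97 to 1.51 for EBF3. Depth limits CEBPA in both groups and PPARG, EBF2, EBF3 and ZNF423 in N clones, where some values rest on 0 to 3 counts.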
